A study of Mus musculus with 6 samples.

Results

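The mitochondrial genome of the mouse is a small circle that encodes 13 proteins, 2 ribosomal RNAs and 22 transfer RNAs, and the 37 genes are described here in C2C12 myotubes. The genes were taken as every row of the deposited count table whose name starts with mt-, which gave 37 of 46983 rows. Of these, 16 had at least 1 count in a library: the 13 protein-coding genes, both rRNA genes and 1 tRNA gene. The other 21 tRNA genes had 0 counts in every library, where 3 counts, taken as the floor, corresponded to 0.1002 to 0.1256 CPM (a gene's counts relative to the size of its library).

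C2C12 is a mouse myoblast line whose cells leave the cell cycle and fuse into multinucleated myotubes when serum is withdrawn. The cells, labelled wild type and below passage 7, were differentiated for 7 days in 2% horse serum and then exposed for 24 h to 1e-07 M corticosterone, a glucocorticoid hormone of rodents, or to its solvent, ethanol, at 1 µL/mL. The study asked which genes differ between these treatments, and it has 3 libraries per label, which the design text calls biological replicates made independently. The libraries are called by their labels, COR1, COR2 and COR3 for corticosterone and VEH1, VEH2 and VEH3 for vehicle.

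All 13 proteins are subunits of the complexes that carry electrons to oxygen and make ATP, while most other subunits of these complexes come from nuclear genes. Both strands of the circle are transcribed as long precursors, and the tRNAs that lie between the other genes are cut out to free the mRNAs and rRNAs. Most mitochondrial mRNAs receive a poly(A) tail that in several of them completes the stop codon. The rRNAs carry only a short tail, and mature tRNAs end in CCA. Differentiating muscle cells are known for making more mitochondria as they fuse.

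Libraries were made from poly(A) RNA and gave 23877583 to 29928653 counts each. Genes that glucocorticoids induce went against the labels in 2 libraries. Fkbp5, which binds the receptor through Hsp90, stood at 151, 36.9 and 135 CPM in COR1, COR2 and COR3 and at 36.9, 177 and 35.3 CPM in VEH1, VEH2 and VEH3, and Tsc22d3 and Per1 were high in the same 3 libraries. COR1, COR3 and VEH2 therefore had the higher levels and COR2, VEH1 and VEH3 the lower ones. Over 14435 tested genes other than the mt- genes, each library was nearest to 1 other library: COR1 and VEH3 were 0.36 log2 units apart (root mean square), VEH1 and VEH2 0.36, and COR2 and COR3 0.40, while the next nearest library was 0.45 to 0.48 away. Only the pair of COR1 and VEH3 holds both labels. All 8 myotube marker genes found in the table had at least 10 counts in every library. Of the markers of other cell types, Ptprc and Adgre1 (immune), Adipoq and Cidec (adipocyte) and Epcam (epithelial) had 0 counts throughout, and the endothelial markers Pecam1, Cdh5 and Kdr had at most 6 counts in a library. The remaining immune marker, Cd68, had at most 58 counts and the remaining epithelial markers at most 210.

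The position of the genes on the circle matters for reading their counts, because neighbours touch or overlap and because nuclear DNA holds copies of part of it. All coordinates are from GENCODE M21 on GRCm38 (mm10), the build named by the submitters' processing notes. mt-Atp8 and mt-Atp6, 2 subunits of ATP synthase, share 43 bases, and mt-Nd4l and mt-Nd4, 2 subunits of complex I, share 7. These junctions are shown because a read across them belongs to both genes, with the shared bases in capitals and the plus strand of the mitochondrial chromosome read 5′ to 3′.
mt-Atp8 end and mt-Atp6 start, chrM:7909-7987: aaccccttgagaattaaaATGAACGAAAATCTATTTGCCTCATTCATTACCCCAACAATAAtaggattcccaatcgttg
mt-Nd4l end and mt-Nd4 start, chrM:10149-10191: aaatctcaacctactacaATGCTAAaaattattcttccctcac

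On chromosome 1, 7 annotated nuclear genes between 24611535 and 24616197 matched the mitochondrial stretch from the end of mt-Co1 to the middle of mt-Nd4 at 99% identity or more. They lie in reverse order and with nearly the same spacing as on the mitochondrial chromosome. For example, Gm10925 and Gm28661, the copies of mt-Atp6 and mt-Co2, are 233 bases apart, and the genes themselves 230. The copies Gm28661 of mt-Co2, Gm10925 of mt-Atp6, Gm28437 of mt-Co3, Gm10222 of mt-Nd4l and Gm28439 of the first 876 bases of mt-Nd4 had 0 mismatches over the aligned bases. Gm28438 differed from mt-Nd3 at 1 base over 345 aligned bases, and Gm29216 differed from the last 483 bases of mt-Co1 at 1. A second copy of mt-Co1, Gm13340 on chromosome 2, spans all 1545 bases with 37 mismatches. Stretches of 60 bases of each pair are shown on the strand of the gene, with the differing bases in capitals, to let the near identity on chromosome 1 be seen beside the looser match on chromosome 2.
mt-Nd3, chrM:9459-9518, plus strand: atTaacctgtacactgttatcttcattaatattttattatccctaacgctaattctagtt
Gm28438, chr1:24613060-24613119, minus strand: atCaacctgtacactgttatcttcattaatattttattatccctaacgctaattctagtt
mt-Co1, chrM:6390-6449, plus strand: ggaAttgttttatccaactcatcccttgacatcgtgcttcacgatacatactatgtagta
Gm29216, chr1:24616129-24616188, minus strand: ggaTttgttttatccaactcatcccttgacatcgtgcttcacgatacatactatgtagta
mt-Co1, chrM:6143-6202, plus strand: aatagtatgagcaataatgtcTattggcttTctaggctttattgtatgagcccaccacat
Gm13340, chr2:22588773-22588832, minus strand: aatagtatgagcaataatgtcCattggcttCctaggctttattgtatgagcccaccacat

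Counted from the first base of the gene, the differences were T3C in mt-Nd3 against Gm28438 and A1066T in mt-Co1 against Gm29216. Reads were 150 bases long per the series' design text. Of all windows of 150 bases, 99.4% in mt-Co2 and mt-Atp6, 99.8% in mt-Co3, 98.0% in mt-Nd4l and 97.0% in mt-Nd3 also occurred, letter for letter, in a transcript of a nuclear gene. The share was 59.2% in mt-Nd4 and 23.6% in mt-Co1. It was 0% in mt-Nd1, mt-Nd2, mt-Nd5, mt-Nd6, mt-Cytb and both rRNA genes. mt-Atp8 also had 0%, since no nuclear transcript in the annotation covers it, but it lies between mt-Co2 and mt-Atp6, in the gap left between their copies on chromosome 1.

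Scaled to gene length, the protein-coding genes fell into 2 ranges. The 6 adjoining genes from mt-Co2 to mt-Nd4l, grouped after their values were seen, had mean levels from 1.34 CPM per kb in mt-Atp8 to 99.5 in mt-Co2. The other 7 had mean levels from 1021 CPM per kb in mt-Nd6 to 6144 in mt-Co1, so that the lowest of them was 10.3-fold above mt-Co2. Within the low range mt-Co3 stood at 45.2, mt-Atp6 at 42.3, mt-Nd4l at 11.3 and mt-Nd3 at 10.6 CPM per kb. Within the high range mt-Cytb stood at 2944, mt-Nd1 at 2498, mt-Nd5 at 1506, mt-Nd2 at 1412 and mt-Nd4 at 1026 CPM per kb. In every library each gene of the low range lay under each gene of the high range. The low range was made of the 5 genes with 97.0% or more of their windows in nuclear transcripts and mt-Atp8, the gene enclosed by them. How reads that fit both places were counted is not given in the sources used here, and what this did to the low levels was not tested. The counts of these 6 genes are therefore uncertain as measures of their RNA.

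**Figure D1:**
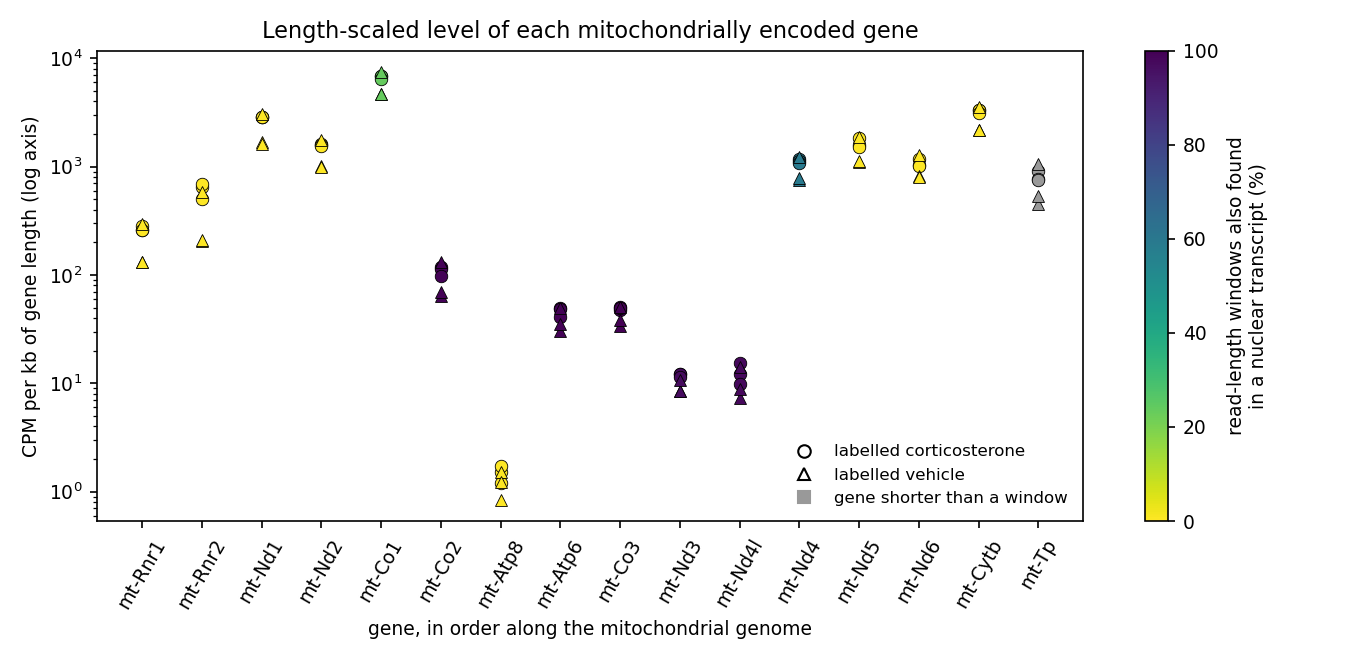
Level of each mitochondrially encoded gene with counts, in CPM per kb of gene length on a log axis, in genome order, with 1 point per library (circles labelled corticosterone, triangles labelled vehicle). Colour gives the percentage of 150-base windows that also occur in a nuclear transcript, and grey marks mt-Tp, which is shorter than a window. The 6 genes from mt-Co2 to mt-Nd4l lie between 1.34 and 99.5 CPM per kb on average, and the other 7 protein-coding genes at 1021 or more.

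Counts were also assigned to the copies. Where a copy has 0 mismatches, its reads and those of its mt- gene cannot be told apart by sequence. In COR1, COR2, COR3, VEH1, VEH2 and VEH3, Gm28661 had 987, 1033, 774, 536, 660 and 991 counts, against 2338, 2251, 1710, 1124, 1389 and 2173 for mt-Co2. Gm28661 thus had 42.2 to 47.7 counts per 100 of mt-Co2, a ratio that varied 1.13-fold over the libraries. Gm10925 had 152 to 196 counts per 100 of mt-Atp6, and Gm28438 211 to 289 per 100 of mt-Nd3. Like the mt- genes, the 7 copies as a sum were lowest in VEH1 and VEH2, at 0.0115 and 0.0124% of counts, and highest in VEH3, at 0.0194%.

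Counts from the mt- genes made up 2.53, 2.46 and 2.39% of all counts in COR1, COR2 and COR3 and 1.69, 1.67 and 2.76% in VEH1, VEH2 and VEH3. VEH1 and VEH2 were the low libraries and VEH3 the highest, so that the labels overlapped. The 13 protein-coding genes carried most of this, with 2.42, 2.32 and 2.25% against 1.64, 1.62 and 2.63%. They include the 6 low-range genes with uncertain counts, so these shares of counts may differ from shares of RNA. The 2 rRNA genes gave 0.103, 0.127 and 0.132% against 0.0463, 0.0466 and 0.121%, and the tRNA genes, through mt-Tp alone, 0.00601, 0.00503 and 0.00497% against 0.00314, 0.00367 and 0.00706%. Counting error was far smaller than the distance between low and high libraries: the 95% Wilson interval of the whole share was 1.682 to 1.692% in VEH1 and 2.385 to 2.397% in COR3.

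**Figure D2:**
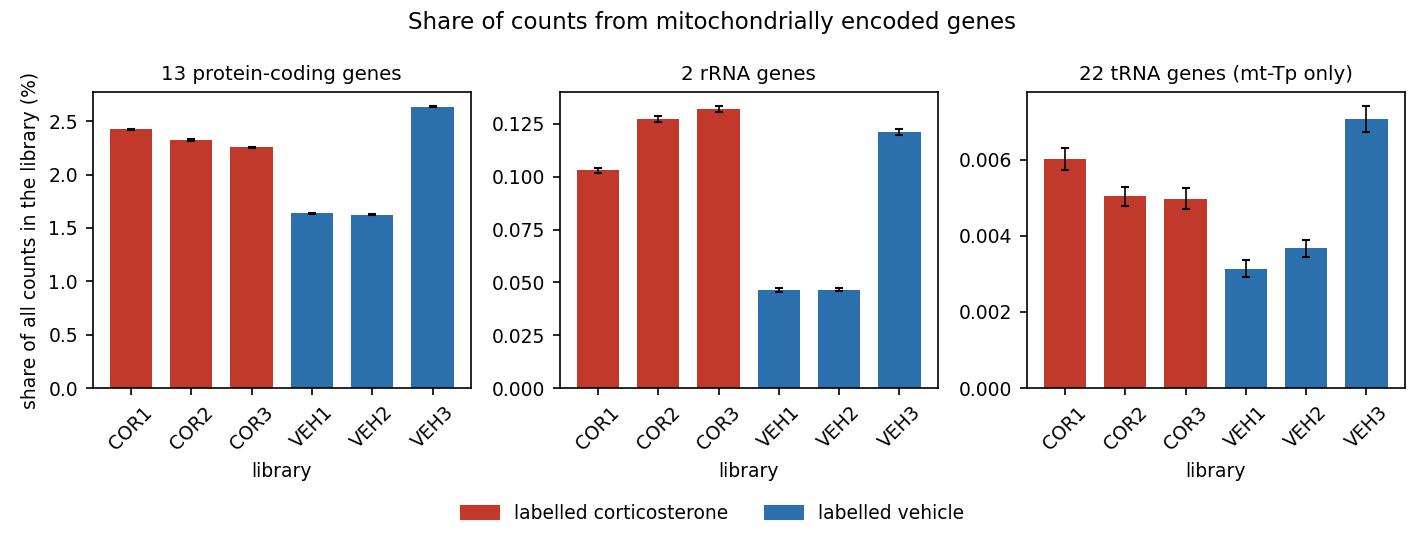
Share of all counts (percent) from the 13 protein-coding, 2 rRNA and 22 tRNA genes of the mitochondrial genome in each library, red labelled corticosterone and blue labelled vehicle. Bars start at 0, and error bars are 95% Wilson intervals that cover counting error only. In each panel VEH1 and VEH2 are lowest, and VEH3 is beside or above the corticosterone libraries.

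By label, the whole share was 2.46 ± 0.0708% (SD, n = 3) with corticosterone and 2.04 ± 0.625% (SD, n = 3) with vehicle, a difference of 0.419 percentage points. It did not exceed the spread between libraries (exact two-sided permutation p = 0.4, adjusted p = 0.533 over the 4 shares, where 3 against 3 libraries allow no p under 0.1). The protein-coding share differed by 0.369 points (exact permutation p = 0.4), the rRNA share by 0.0494 points (exact permutation p = 0.2) and the tRNA share by 7.2e-04 points (exact permutation p = 0.6). The first 2 had an adjusted p of 0.533 and the tRNA share one of 0.6. Single vehicle libraries set the size of the difference: the whole share differed by 0.78 points without VEH3, 0.243 without VEH1 and 0.235 without VEH2. With both libraries numbered 2 left out, because of Fkbp5 and similar genes, it differed by 0.237 points. In bulk RNA, fewer mitochondria-rich cells, less mitochondrial RNA per cell and more nuclear RNA per cell cannot be told apart.

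High and low mitochondrial shares were found on both sides of the split by Fkbp5. The libraries with high Fkbp5 held 2.53% (COR1), 2.39% (COR3) and 1.67% (VEH2), and those with low Fkbp5 held 2.46% (COR2), 1.69% (VEH1) and 2.76% (VEH3). The split of the libraries by Fkbp5 was drawn from the data, so it is given no mean and no test. Within the pairs of near libraries, COR3 was 0.064 points under COR2 and VEH2 was 0.015 under VEH1. COR1 was 0.23 points under VEH3, its partner, and its share was nearer to those of COR2 and COR3.

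The pattern was shared by all 15 mt- genes that passed the count filter (12 protein-coding genes, both rRNA genes and mt-Tp; mt-Atp8, with 5 to 9 counts, did not pass). In 15 of 15 genes VEH1 and VEH2 were the lowest 2 libraries, and VEH3 was the highest in 12. VEH1 and VEH2 were also a near pair over the other tested genes. The share of all tested genes with VEH1 and VEH2 lowest was not counted, for these genes or for the lists below. As deviations of log2 CPM from the mean of the 6 libraries, the 12 protein-coding genes had medians of 0.23, 0.18 and 0.10 in COR1, COR2 and COR3 and of -0.41, -0.37 and 0.32 in VEH1, VEH2 and VEH3. These genes are processed from shared precursors and share each library's scaling, so they are not independent of each other.

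**Figure D3:**
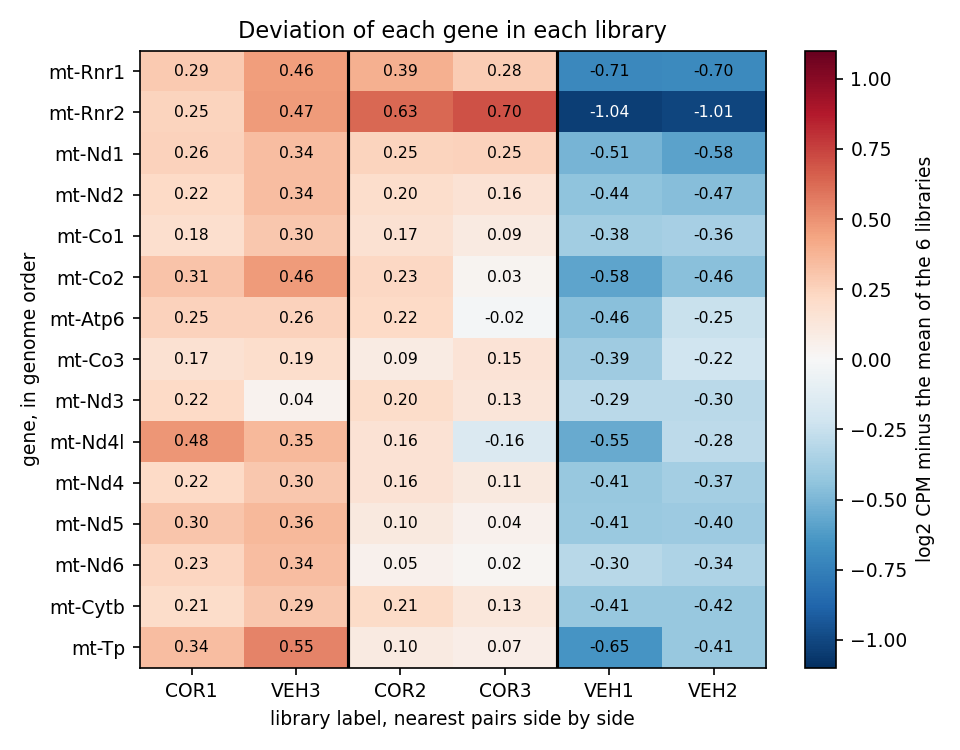
Log2 CPM of each tested mt- gene minus its mean over the 6 libraries, with genes in genome order as rows and libraries as columns, near pairs side by side and divided by black lines. The columns of VEH1 and VEH2 are below 0 in every row, and mt-Rnr2 has the widest range, from -1.04 to 0.70.

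Within COR1 and VEH3, the pair with both labels, COR1 had the lower CPM for 13 of 15 genes, with log2 ratios from -0.22 to 0.18 and a median of -0.09. Within COR3 and COR2, COR3 was lower for 12 of 15, with a median of -0.06. Within VEH2 and VEH1, VEH2 was higher for 10 of 15, with a median of 0.02. The first library of each pair is the one with high Fkbp5. With 1 library on each side these ratios have no test.

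Complex I, NADH dehydrogenase, takes 7 of its core subunits from the mitochondrial genome. mt-Nd1 (ENSMUSG00000064341, chrM:2751-3707) stood at 2759, 2746 and 2749 CPM in COR1, COR2 and COR3 and at 1621, 1541 and 2926 CPM in VEH1, VEH2 and VEH3. The corticosterone libraries were nearly equal, and VEH3 was above all of them. mt-Nd1 differed by 0.44 ± 0.24 on the log2 scale (corticosterone minus vehicle, SE; 95% interval -0.12 to 0.99; edgeR adjusted p = 0.493). mt-Nd2 (chrM:3914-4951) gave 1669, 1640 and 1593 against 1053, 1032 and 1808 CPM, and mt-Nd4 (chrM:10167-11544) gave 1618, 1553 and 1496 against 1042, 1070 and 1703 CPM. In both, VEH1 and VEH2 were lowest and VEH3 was highest. mt-Nd5 (chrM:11742-13565) gave 3311, 2890 and 2772 against 2029, 2035 and 3439 CPM. mt-Nd6 (chrM:13552-14070), the only protein-coding gene annotated on the minus strand, gave 613, 539 and 530 against 423, 412 and 662 CPM. It had the smallest log2 difference of the 15 genes, 0.17 ± 0.19. It overlaps mt-Nd5 by 14 bases on the opposite strand, and the sources do not say that strand was kept, so its counts may hold RNA of the other strand.

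mt-Nd3 (chrM:9459-9806) was the only mt- gene whose levels did not overlap between the labels, at 4.26, 4.21 and 4.004 against 2.97, 2.96 and 3.75 CPM, where 16.6% of all tested genes did not overlap in either direction (8.41% higher and 8.19% lower with corticosterone). It rests on 76 to 123 counts a library and is among the genes copied on chromosome 1. With the counts of Gm28438 added, its log2 difference changed from 0.37 to 0.23. mt-Nd4l (chrM:9877-10173) gave 4.57, 3.63 and 2.91 against 2.19, 2.65 and 4.17 CPM.

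Complex III has 1 mitochondrially encoded subunit, cytochrome b. mt-Cytb (chrM:14145-15288) stood at 3804, 3807 and 3605 against 2479, 2465 and 4046 CPM, lowest in VEH1 and VEH2 and highest in VEH3. The log2 difference was 0.32 ± 0.20 (95% interval -0.14 to 0.78; edgeR adjusted p = 0.542). In complex IV, cytochrome c oxidase, mt-Co1 (chrM:5328-6872) encodes the catalytic subunit and was the mt- gene with the most counts. It stood at 10596, 10467 and 9969 against 7181, 7259 and 11486 CPM, with a log2 difference of 0.26 ± 0.19 (95% interval -0.19 to 0.71; edgeR adjusted p = 0.607). mt-Co2 (chrM:7013-7696) gave 81.6, 77.05 and 67.1 against 43.9, 47.8 and 90.7 CPM, and mt-Co3 (chrM:8607-9390) gave 39.4, 37.4 and 38.9 against 26.8, 30.1 and 39.9 CPM. In ATP synthase, mt-Atp6 (chrM:7927-8607) gave 33.7, 33.0 and 27.8 against 20.5, 23.8 and 33.8 CPM. mt-Atp8 (chrM:7766-7969) had 7, 9 and 9 counts against 8, 5 and 6. It was under the count filter and was not tested.

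The 2 rRNA genes varied more between libraries than the 7 protein-coding genes of the high range. mt-Rnr2 (ENSMUSG00000064339, chrM:1094-2675), the 16S rRNA of the large subunit of the mitochondrial ribosome, stood at 794, 1035 and 1090 CPM in COR1, COR2 and COR3 and at 326, 332 and 924 CPM in VEH1, VEH2 and VEH3. VEH1 and VEH2 lay far under the other 4 libraries, and VEH3 lay among the corticosterone libraries. mt-Rnr1 (ENSMUSG00000064337, chrM:70-1024), the 12S rRNA of the small subunit, gave 249, 268 and 248 against 125, 126 and 281 CPM. The highest library was 3.35-fold above the lowest for mt-Rnr2 and 2.25-fold for mt-Rnr1. Outside the high range this ratio was 2.30 for mt-Tp, above mt-Rnr1, 2.09 for mt-Nd4l and 2.06 for mt-Co2. It was 1.64 for mt-Atp6, 1.49 for mt-Co3 and 1.44 for mt-Nd3. The same ratio was 1.90 for mt-Nd1, the next gene along the circle, 1.75 for mt-Nd2, 1.60 for mt-Co1, 1.63 for mt-Nd4, 1.69 for mt-Nd5, 1.61 for mt-Nd6 and 1.64 for mt-Cytb.

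By label, mt-Rnr2 was 973 ± 158 against 527 ± 344 CPM (SD, n = 3 each), a log2 difference of 0.88 ± 0.40 (95% interval -0.05 to 1.82; edgeR adjusted p = 0.436). mt-Rnr1 was 255 ± 10.9 against 177 ± 89.9 CPM, a log2 difference of 0.53 ± 0.30 (95% interval -0.18 to 1.23; edgeR adjusted p = 0.512). Neither passed with all 6 libraries. Without VEH3 both were called: mt-Rnr2 differed by 1.56 (edgeR adjusted p = 0.0363) and mt-Rnr1 by 1.02 (edgeR adjusted p = 0.0314), among 11 calls, 9 of them higher, in 14793 genes (0.0744% in either direction and 0.0608% higher). That fit sets VEH1 and VEH2, which are near each other, against the 3 corticosterone libraries, so the label and this pair cannot be told apart in it.

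The rRNA counts also differed between libraries when set against the mRNA counts. There were 4.25, 5.47 and 5.85 rRNA counts per 100 mt- protein-coding counts in COR1, COR2 and COR3 and 2.83, 2.87 and 4.59 in VEH1, VEH2 and VEH3. COR2 and COR3, a near pair, were highest and VEH1 and VEH2 lowest. Within the rRNAs, mt-Rnr2 had 3.18, 3.87 and 4.39 counts per count of mt-Rnr1 in the corticosterone libraries and 2.60, 2.65 and 3.29 in the vehicle libraries. Both ratios are within a library and need no scaling. Since poly(A) RNA was selected, rRNA counts come from the part of these RNAs that the selection kept. Few other RNAs without a long tail could be compared, since 1 of 6 small RNAs and 16 of 70 histone genes had at least 10 counts in every library. Rn7sk, a small nuclear RNA, stood at 1.99, 1.61 and 1.69 against 2.11, 3.00 and 2.50 CPM, and Rmrp had 0 counts in every library. The summed share of 70 histone genes, many of whose mRNAs lack a tail, was 0.0363 to 0.0399% against 0.0395 to 0.0461% and highest in VEH2. Much of that sum was Hist1h1c, with 6525 to 9013 counts a library, and in 6 of the histone genes VEH1 and VEH2 were the lowest 2 libraries. The part of the selection in the rRNA levels was not tested.

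The composition of the mRNA counts was steady by comparison. mt-Co1 made up 43.2, 44.0 and 43.6% of the counts of the 13 protein-coding genes in COR1, COR2 and COR3 and 45.1, 45.6 and 43.8% in VEH1, VEH2 and VEH3. mt-Cytb made up 15.42 to 15.996%, mt-Nd4 6.49 to 6.72% and mt-Nd2 6.48 to 6.97%, each within 1.08-fold over the libraries. mt-Nd1 moved most among the 7 genes of the high range, from 9.68% in VEH2 to 12.03% in COR3. mt-Nd5 had 120, 105 and 101 counts per 100 of mt-Nd1 with corticosterone and 125, 132 and 118 with vehicle, lowest in COR2 and COR3 and highest in VEH1 and VEH2. These ratios were not tested. The percentages are of a sum that holds the uncertain counts of the 6 low-range genes. mt-Nd4 and mt-Co1 also had 59.2 and 23.6% of their windows in nuclear transcripts, and how such reads were counted is not given.

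mt-Tp (ENSMUSG00000064372, chrM:15356-15422), the proline tRNA gene, was the only tRNA gene with counts. It is 67 bases long, lies on the minus strand at the end of the annotated genes and borders the control region, which has no gene in this annotation. Its sequence, 5′ to 3′ on the minus strand, is shown because it is shorter than 1 read. Each of its reads must reach past it or come from a fragment as short. The labels' protocols give fragments of 150 to 200 bases.
mt-Tp: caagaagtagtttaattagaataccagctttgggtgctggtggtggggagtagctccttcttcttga
mt-Tp had 1744, 1506 and 1284 counts in COR1, COR2 and COR3 and 781, 1046 and 1685 in VEH1, VEH2 and VEH3. VEH1 was lowest, and VEH3 was highest in CPM, at 70.3 against 60.9 in COR1. The log2 difference between the labels was 0.25 ± 0.29 (edgeR adjusted p = 0.73). The sources do not say that strand was kept, so the counts of mt-Tp may hold RNA of the other strand. All other tRNA genes, such as mt-Tf (phenylalanine) and mt-Tt (threonine, the neighbour of mt-Tp), were under the floor. They too are shorter than 1 read, and how reads that reach into a neighbouring gene were counted is not given.

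Over the 15 tested mt- genes, 0 passed the edgeR test in either direction, as did 0% of the 14450 genes tested. At an unadjusted p under 0.05 there were 0 mt- genes, where 11.8% of all genes had such a p. DESeq2 called 0 mt- genes and 138 of all genes (0.955%), and limma-voom called 0. All 15 log2 differences were above 0, with a median of 0.31, where 50.8% of all genes were above 0 and their median was 0.00. For the 12 protein-coding genes the median was 0.30. It was 0.55 without VEH3, 0.13 without VEH1, 0.19 without VEH2 and 0.18 with both libraries numbered 2 left out. The direction held for each of the 15 genes under every alternative run, down to 0.02 for mt-Tp without VEH1.

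**Figure D4:**
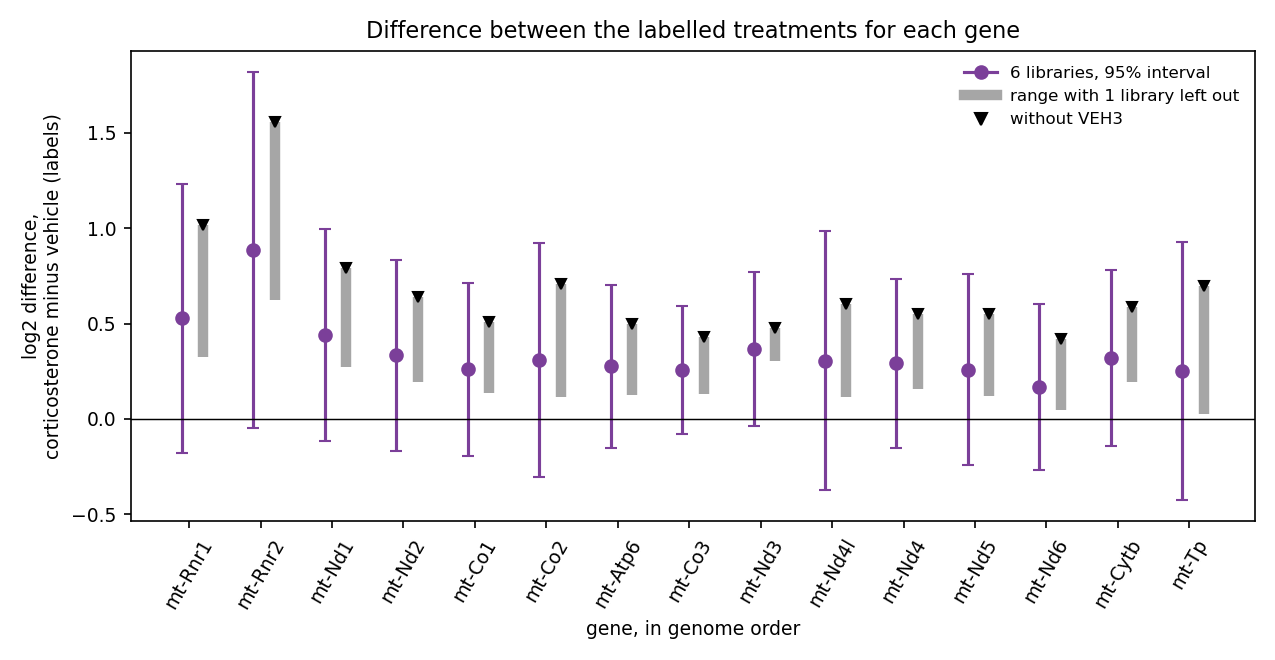
Log2 difference of each tested mt- gene between the labels (corticosterone minus vehicle), with the 95% interval from edgeR (purple), the range when 1 library is left out (grey bar) and the value without VEH3 (black triangle). Every purple interval includes 0, mt-Rnr2 has the largest difference at 0.88, and every difference is largest without VEH3.

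Nuclear genes that act on mitochondrial DNA and RNA did not pass the test either, as edgeR called 0 of all 14450 genes tested. The 0 calls given for each list below are therefore no trait of that list. Of 10 genes of mitochondrial transcription, 0 were called, 5 had a log2 difference above 0 and 5 below, with a median of -0.01. Polrmt, the mitochondrial RNA polymerase, stood at 53.1, 52.1 and 55.8 against 47.3, 50.05 and 54.7 CPM, lowest in VEH1 and VEH2 like the mt- genes. Tfam, which packages mitochondrial DNA and starts transcription, stood at 44.0, 38.0 and 40.2 against 46.4, 46.0 and 44.0 CPM. Its highest values were thus in VEH1 and VEH2, the libraries with the least mt- RNA (log2 difference -0.16 ± 0.08; edgeR adjusted p = 0.47). Tfb2m, a transcription factor of the organelle, differed by -0.07 ± 0.10. VEH1 and VEH2 are a near pair. The share of all tested genes with both lowest or both highest was not counted, for these genes or those named below.

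Of 32 genes of mitochondrial RNA processing and stability, 0 were called and 21 had a log2 difference above 0, with a median of 0.05. Lrpprc, which with Slirp protects mitochondrial mRNAs and promotes their polyadenylation, stood at 91.7, 75.6 and 81.8 against 70.9, 73.9 and 81.2 CPM (log2 difference 0.14 ± 0.10). Slirp stood at 8.13, 8.87 and 7.54 against 9.57, 10.6 and 8.34 CPM (-0.22 ± 0.14). Lrpprc was thus lowest in VEH1 and VEH2, and Slirp was highest there. Grsf1, of the mitochondrial RNA granules, and Rexo2, which degrades short RNAs, differed by 0.01 ± 0.07 and 0.01 ± 0.09. In the 15 genes of mitochondrial DNA maintenance, 0 were called, 8 were above 0 and the median was 0.05. Lig3, the DNA ligase of mitochondria, stood at 63.4, 69.4 and 69.4 against 51.8, 50.1 and 61.3 CPM without overlap (0.31 ± 0.10, edgeR adjusted p = 0.364). Of all tested genes, 8.41% were higher with corticosterone without overlap. Lig3 was lowest in VEH1 and VEH2. Rrm2b and Polg differed by -0.11 ± 0.08 and 0.05 ± 0.11.

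Of 10 regulators of mitochondrial biogenesis, 0 were called, with a median of 0.01. Ppargc1a, a coactivator of mitochondrial genes, was low throughout, at 1.40, 1.44 and 0.43 against 1.64, 0.65 and 1.29 CPM. Gabpa, Yy1 and Pprc1, its most abundant companions in the list, differed by -0.01 ± 0.06, 0.09 ± 0.06 and 0.03 ± 0.10. Of 12 factors of mitochondrial translation, 0 were called (median 0.00). Tufm, an elongation factor, gave 87.4, 82.4 and 92.2 against 72.7, 74.4 and 86.3 CPM, lowest in VEH1 and VEH2. Gfm1 and Oxa1l differed by 0.10 ± 0.07 and 0.02 ± 0.06. Of the 76 tested proteins of the mitochondrial ribosome, 0 were called, 30 were above 0 and 46 below, with a median of -0.03. Mrpl13 stood at 61.4, 57.0 and 58.3 against 85.3, 78.9 and 68.9 CPM without overlap, highest in VEH1 and VEH2 (-0.40 ± 0.09, edgeR adjusted p = 0.364). Of all tested genes, 8.19% were lower with corticosterone without overlap. Mrpl13 was the 1 gene of this list called by DESeq2, which called 0.955% of all genes. Mrpl51 differed by 0.18 ± 0.07 and Mrps23 by -0.17 ± 0.10.

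As a sum, nuclear genes for subunits of the same complexes did not share the order of the mt- genes. Their summed share of counts was 1.02, 0.918 and 1.07% in COR1, COR2 and COR3 and 1.01, 1.02 and 1.01% in VEH1, VEH2 and VEH3, so that VEH1 and VEH2 were level with VEH3. Of 81 tested, 0 were called by edgeR, 40 were above 0 and 41 below, and the median was 0.00. DESeq2, which called 0.955% of all genes, called 1 of the 81, Ndufc2, a gene picked after its values were seen. The most abundant, Atp5b, gave 1882, 1666 and 1931 against 1521, 1600 and 1706 CPM, and was lowest in VEH1 and VEH2 like the mt- genes. How many of the 81 had that order was not counted. Atp5a1 and Sdha differed by 0.13 ± 0.09 and 0.13 ± 0.07.

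Myotube markers shared the low libraries of the mt- genes. The summed share of the 8 myotube markers was 1.242, 1.091 and 1.193% in COR1, COR2 and COR3 and 0.918, 1.02 and 1.22% in VEH1, VEH2 and VEH3. VEH1 and VEH2, a near pair, were lowest, as for the mt- genes, and in 6 of the 8 genes they were the lowest 2 libraries. How many of all genes had that order was not counted. Myh3, embryonic myosin heavy chain, stood at 1585, 1900 and 1770 against 973, 896 and 1713 CPM, and Ckm, muscle creatine kinase, at 338, 203 and 319 against 97.4, 152 and 224 CPM. Both are among those 6 genes and were picked after their values were seen. Of the 8 markers, 7 had a log2 difference above 0 and 1 below, where 50.8% of all genes were above 0. The 7 myoblast and cell cycle markers together held 0.0242, 0.0233 and 0.0228% in COR1, COR2 and COR3 and 0.0290, 0.0278 and 0.0280% in VEH1, VEH2 and VEH3. All 3 vehicle libraries, VEH3 included, were thus above the corticosterone libraries, and none of them was at 0. Of the 7, 2 had a log2 difference above 0 and 5 below. edgeR called 0 of the 7. DESeq2, which called 0.955% of all genes, called Ccna2 and Top2a, both lower with corticosterone. The nuclear RNAs Malat1 and Neat1 were lowest in VEH1 and highest in VEH3, and Malat1 stood at 209, 252 and 195 against 148, 217 and 289 CPM. The part of these markers in the mitochondrial share was not tested.

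**Figure D5:**
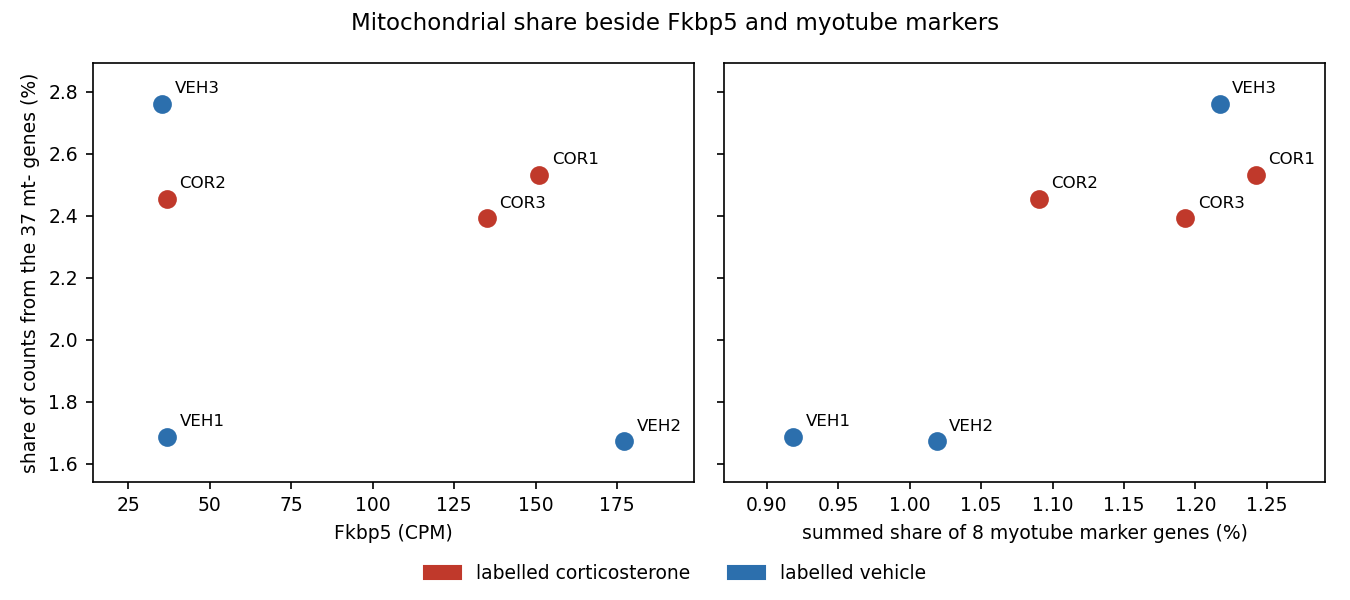
Share of counts from the 37 mt- genes in each library (percent) against the CPM of Fkbp5 (left) and against the summed share of 8 myotube marker genes (right), red labelled corticosterone and blue labelled vehicle. On the left, VEH2 with the highest Fkbp5 has the lowest mitochondrial share and VEH3 with the lowest Fkbp5 the highest. On the right, VEH1 and VEH2 are lowest on both axes.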

How the data were processed

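RNA of C2C12 myotubes was sequenced in 6 libraries, 3 per label. The authors deposited raw read counts per gene, 1 column per library. Tools listed in the submitters' processing notes are HTSeq 0.6.1, HISAT2 2.0.5 and DESeq2 1.24.0, with the build mm10. Their settings, the annotation release and the handling of reads with several matches were not given in the sources used here. Poly(A) selection and the NEBNext Ultra kit are per the labels' protocols. Every row named a gene, no column was left unmapped, and 46488 gene identifiers (98.95%), with all 37 mt- genes, matched GENCODE M21.

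The labels were compared two-sided in R 4.3.3 with edgeR 4.0.16 (quasi-likelihood test, TMM scaling). filterByExpr kept 14450 genes, over which p-values were adjusted by Benjamini-Hochberg, and an adjusted p under 0.05 was called. The script was tested on simulated data. CPM are TMM-scaled; shares use the library total. Shares were compared by exact permutation tests (scipy 1.17.1). Intervals and floors cover counting error only. Log2 deviations used a prior count of 2. Nuclear copies were found with blastn 2.17.0 (90% identity, 60 bases) and by exact 150-base windows against the M21 transcripts, since no genome sequence was used. Alternatives were DESeq2 1.42.0, limma-voom (limma 3.58.1), other scalings, filters and denominators, protein-coding genes only, the replicate block and each library left out.

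The members and gene lists were chosen with earlier results of these data known. Named genes are all mt- protein-coding and rRNA genes, tRNA genes with a mean of at least 10 counts, the 3 most abundant of each nuclear list, and Tfam, Polrmt, Lrpprc, Slirp and Ppargc1a. Ndufc2 and the named marker genes were chosen after their values were seen. No pair of libraries agreed within sampling noise: 37.7 to 63.3% of genes lay beyond 1.96 SD of counting error.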

Additional observations from a re-analysis of the deposited data

How the results depend on the processing

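No mt- gene was called with all 6 libraries under edgeR, DESeq2, limma-voom or any scaling, filter or block. With 1 library left out, 0 to 2 were called, the 2 being mt-Rnr1 and mt-Rnr2 without VEH3. Over all genes DESeq2 made 138 calls, 68 higher and 70 lower, and leaving out 1 library gave 0 to 29 (29 without COR1, 11 without VEH3). Leaving out both libraries numbered 2, chosen after seeing the data, gave 3. The tRNA share difference ran from -2.50e-05 (without VEH1) to 0.00194 percentage points with 1 library left out, and the cause was not tested. Of 267 combinations of mt- gene and alternative, 265 kept direction and side of the threshold, and none reversed. With the replicate block the median of the protein-coding genes was 0.33, the whole share differed by 0.419 points (exact sign-flip p = 0.5, where no p under 0.25 is possible) and no gene was called. Same-numbered libraries had deviations from the mean of their label correlated at -0.15, -0.27 and -0.32. With 3 libraries per label such deviations depend on each other, so they cannot show whether equal numbers mark a shared culture. mt-Atp8, with 5 to 9 counts a library, was too low to pass the count filter, and the tests of shares cannot reach the threshold.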
